A study of Mus musculus with 16 samples.

Results

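The mitochondrial genome encodes 13 proteins, and all of them are subunits of the respiratory chain or of the ATP synthase. The 10 genes described here are mt-Nd1, mt-Nd2, mt-Nd4, mt-Nd5 and mt-Nd6 of complex I, mt-Cytb of complex III, mt-Co1, mt-Co2 and mt-Co3 of complex IV, and mt-Atp6 of complex V. They were chosen by symbol, as the rows of the count tables whose Ensembl identifier the mm10 annotation places on the mitochondrial genome under these names, and no measured value entered the choice. On chrM of mm10 they run from 2751, the start of mt-Nd1, to 15288, the end of mt-Cytb, in the order mt-Nd1, mt-Nd2, mt-Co1, mt-Co2, mt-Atp6, mt-Co3, mt-Nd4, mt-Nd5, mt-Nd6 and mt-Cytb, each without introns. All 10 were found among the 52636 genes listed, and all 10 passed the filter on low counts. The other 3 protein genes (mt-Nd3, mt-Nd4l and mt-Atp8), 2 rRNAs and 22 tRNAs make up the remaining 27 of the 37 mitochondrial genes in the tables.

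The counts come from dorsal root ganglia (DRGs) of L3 to L6, taken from 16 male C57Bl6/J mice of 3 to 4 months, with 1 mouse per library and 4 mice per group. The groups were Sham-Saline (sham surgery, vehicle), SNI-Saline (spared nerve injury, vehicle), Sham-DMI (sham surgery, desipramine) and SNI-DMI (spared nerve injury, desipramine). Desipramine (DMI), a tricyclic antidepressant that blocks noradrenaline reuptake, was injected i.p. (15 mg/kg, 2 injections daily) over 3 weeks that began 4 weeks after surgery. The study asks how DMI acts on the gene expression of ganglia exposed to a long-standing nerve injury. No mouse carried a transgene, and the labels list the tissue as spinal cord beside the cell type dorsal root ganglia. Sensory neuron markers were high in every library (Tubb3 1864 to 2704 CPM, Scn10a 966 to 1364 CPM), and the spinal cord markers Mnx1, Olig2, Opalin, Mog and Olig1 were at 0 to 1.04 CPM. The other 2 of that list were higher, Aqp4 at 7.53 to 13.4 CPM and Slc1a2 at 6.17 to 14.2 CPM. CPM stands for the count of a gene scaled to the TMM-normalized size of its library. Between 41194238 and 73920332 read pairs per library were counted on genes, of which 469325 to 724895 fell on the 10 genes.

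Respiratory chain complexes are built from subunits of both genomes. The mitochondrial genes are transcribed as long RNAs that span many genes, one from each strand, and are then cut at the tRNAs between them. All of the 10 genes except mt-Nd6 are read from the same strand. Most mitochondrial mRNAs carry poly(A) tails, so they can be captured when libraries are made from poly(A) RNA. Whether the mRNA of mt-Nd6 was captured like the others was not tested. Sensory neurons hold many mitochondria, in the cell body and along the axon, and use them for firing and for axonal transport. In these bulk samples, fewer mitochondria-rich cells and less mitochondrial RNA per cell cannot be told apart.

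Sequence matters for these genes because the nuclear genome holds copies of mitochondrial DNA, and a read that aligns equally well in more than 1 place is left out by the default counting of HTSeq. The sequences below, from the GENCODE transcripts of GRCm38 (mm10), show stretches of 3 of the genes beside the nuclear pseudogene most like each, as one that is identical, one with 1 difference and one that has diverged. Capitals mark the bases that differ, and the nuclear copies lie on the minus strand.
mt-Co3, chrM:8907-8966: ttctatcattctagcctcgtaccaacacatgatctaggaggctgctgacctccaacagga
Gm28437, chr1:24613612-24613671: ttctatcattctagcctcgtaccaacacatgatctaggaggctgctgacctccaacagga
mt-Co1, chrM:6390-6449: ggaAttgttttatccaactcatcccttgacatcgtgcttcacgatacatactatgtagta
Gm29216, chr1:24616129-24616188: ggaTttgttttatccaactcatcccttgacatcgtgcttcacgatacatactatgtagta
mt-Nd2, chrM:4664-4723: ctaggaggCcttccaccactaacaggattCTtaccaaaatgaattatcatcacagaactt
Gm13339, chr2:22590252-22590311: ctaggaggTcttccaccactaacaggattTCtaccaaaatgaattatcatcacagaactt

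Gm28437 and Gm29216 belong to a block of 7 annotated pseudogenes on chromosome 1, from 24611535 to 24616197. Over the bases that could be aligned, Gm28661 was identical to mt-Co2, Gm10925 to mt-Atp6, Gm28437 to mt-Co3 and Gm28439 to 63.6% of mt-Nd4, and Gm29216 differed from mt-Co1 at 1 base of 483 (A1066T, counted from the first base of mt-Co1). Gm13339 on chromosome 2 differed from mt-Nd2 at 17 of 510 aligned bases, and Gm4076 on chromosome 13 differed from mt-Nd5 at 45 of 953. Each gene was split into all of its windows of 50 bases, the length of 1 read, and each window was searched for in the other annotated transcripts. The share of windows found elsewhere without a difference was 100% in mt-Co2, 99.9% in mt-Co3, 99.5% in mt-Atp6, 62.2% in mt-Nd4, 51.1% in mt-Co1, 8.19% in mt-Nd2 and 7.61% in mt-Nd5. No window of mt-Nd1, mt-Nd6 or mt-Cytb was found elsewhere. The search covered annotated transcripts only, so unannotated copies are not counted.

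Mitochondrial genes also touch or overlap each other. The start of mt-Atp6 lies inside the end of mt-Atp8 on the same strand, over 43 bases, shown with the start codon of mt-Atp6 in capitals. The last 14 bases of mt-Nd5 overlap the end of mt-Nd6, which is on the opposite strand, shown with the stop codon of mt-Nd5 in capitals. The third sequence is the start of mt-Nd6, the one protein gene of its strand, on the minus strand and with its start codon in capitals.
mt-Atp8 and mt-Atp6, chrM:7927-7969: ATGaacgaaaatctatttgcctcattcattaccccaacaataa
mt-Nd5 and mt-Nd6, chrM:13552-13565: ttaatctcgagTAA
mt-Nd6, chrM:14011-14070: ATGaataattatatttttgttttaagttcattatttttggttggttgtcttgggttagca

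The 10 genes fell into an upper set of 7 and a lower set of 3 that no library bridged. Per kilobase of gene, the median level over the 16 libraries was 1799 CPM in mt-Cytb, 1768 in mt-Co1, 1480 in mt-Nd1, 842 in mt-Nd2, 811 in mt-Nd6, 750 in mt-Nd5 and 720 in mt-Nd4. It was 31.0 CPM per kilobase in mt-Co2, 25.2 in mt-Atp6 and 20.5 in mt-Co3. The lowest value of the upper set in any library (512 CPM per kilobase) was 14.5 times the highest of the lower set (35.2 CPM per kilobase). The 3 genes of the lower set are those with at least 99.5% of their windows in a nuclear pseudogene, and they supplied 0.449% to 0.636% of the reads of the 10 genes. The part of uncounted reads in these levels was not tested, so the levels of mt-Co2, mt-Atp6 and mt-Co3 are those of the reads that were counted and do not give the abundance of their RNAs.

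**Figure D1:**
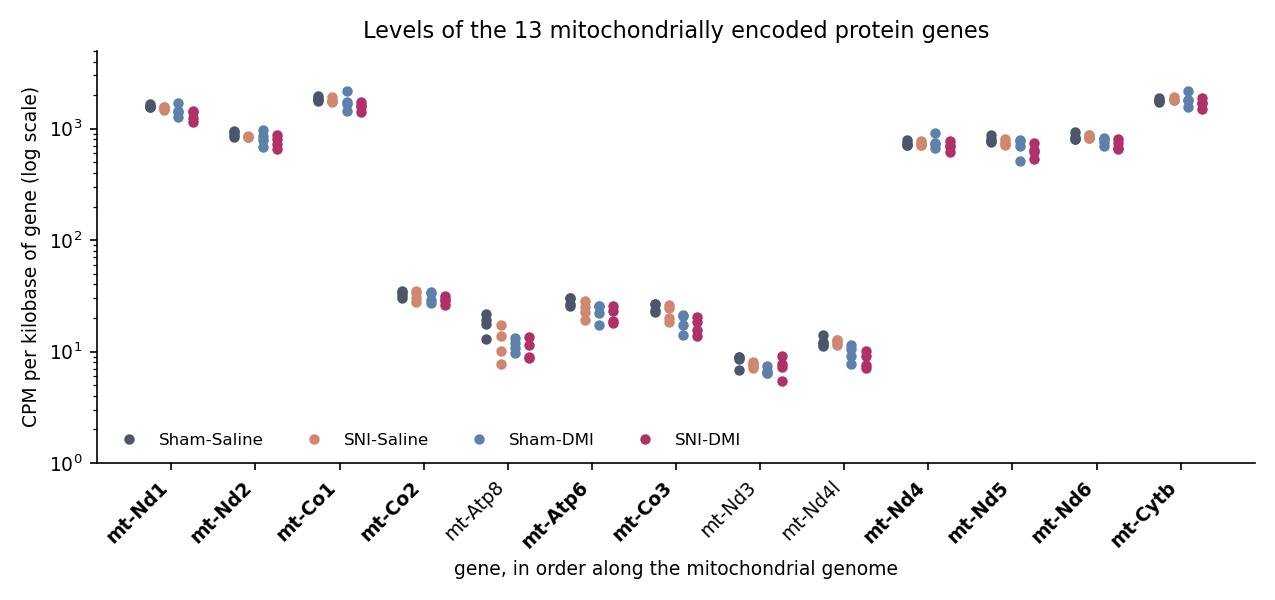
CPM per kilobase (log axis) of the 13 mitochondrially encoded protein genes in each of the 16 libraries, in order along the mitochondrial genome, with 1 point per mouse coloured by group and the 10 genes described in bold. The stretch from mt-Co2 to mt-Nd4l lies at or below 35.2 CPM per kilobase in every library, and the genes on either side lie at or above 512.

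Within the upper set, mt-Nd1 was above mt-Nd2 without overlap between their ranges, and all other neighbours in the order overlapped. The order held in 16 of 16 libraries for mt-Co1 over mt-Nd1, in 15 for mt-Nd6 over mt-Nd5, in 12 for mt-Nd2 over mt-Nd6, in 11 for mt-Cytb over mt-Co1 and in 7 for mt-Nd5 over mt-Nd4. The genes at the top code for cytochrome b, the electron carrier of complex III, and for the catalytic subunit of complex IV. The order depended on the length used, because mt-Co1 and mt-Nd4 share many windows with pseudogenes. Per 1000 windows not found elsewhere, the median was 3737 CPM in mt-Co1, 1976 in mt-Nd4, 1880 in mt-Cytb, 1560 in mt-Nd1, 963 in mt-Nd2, 896 in mt-Nd6 and 834 in mt-Nd5. The strand setting of the counting is not given in the sources used here, so reads of RNA from the strand opposite to mt-Nd6 may be included in its level.

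The 3 other protein genes lie within the same stretch and were as low. The median level per kilobase was 12.5 CPM in mt-Atp8, 11.4 in mt-Nd4l and 7.37 in mt-Nd3. In mt-Nd4l 98.8% of windows and in mt-Nd3 98.0% were found in a pseudogene of the block on chromosome 1. No window of mt-Atp8 was found in an annotated transcript, but an unannotated gap of 233 bases lies in the block between the copies of mt-Atp6 and mt-Co2, the neighbours of mt-Atp8, and the sequence of this gap was not analysed here. The rRNAs mt-Rnr1 and mt-Rnr2, structural RNAs of the mitochondrial ribosome, had medians of 205 and 166 CPM per kilobase.

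The 10 genes together took about 1% of the reads on genes in every group. Their summed share was 1.06%, 1.03%, 1.0% and 1.01% in the Sham-Saline mice (mean 1.03% ± 0.0257, SD, n = 4), in the order of the replicates. In the SNI-Saline mice it was 1.06%, 0.987%, 1.02% and 1.01% (1.02% ± 0.0288). In Sham-DMI it was 0.814%, 0.981%, 1.14% and 0.970% (0.976% ± 0.133), and in SNI-DMI 0.877%, 0.798%, 1.01% and 0.934% (0.904% ± 0.0886). The ranges of all groups overlapped in part, the values below 0.987% were all from DMI mice, and the DMI groups spread more widely: Sham-DMI held both the highest library (replicate 3) and one of the lowest (replicate 1). The library with the lowest share, SNI-DMI replicate 2, also had the highest summed level of the skeletal muscle markers (275 CPM, against 2.27 to 77.2 CPM in the other 15 libraries), and the part of muscle in this share was not tested. Without it the mean of SNI-DMI was 0.940%.

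**Figure D2:**
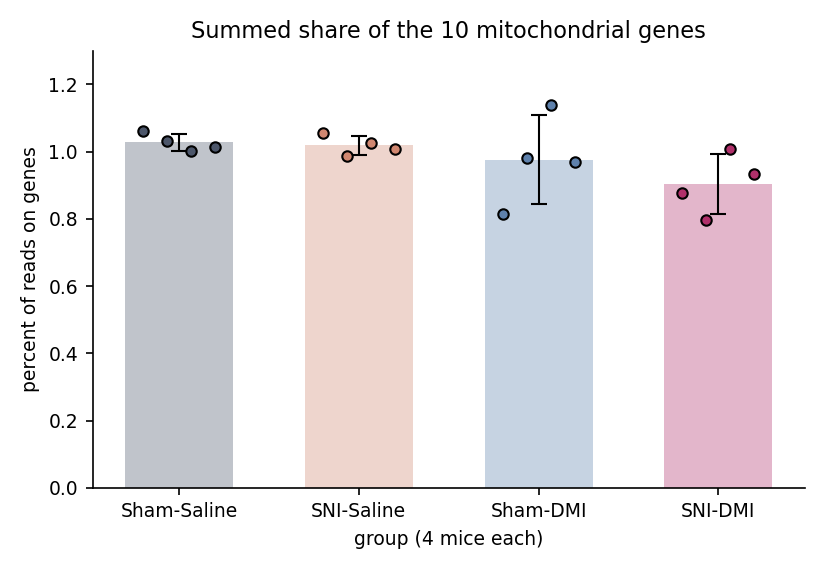
Summed share of the 10 genes in the reads on genes (percent, axis from 0) by group, with 1 point per mouse, bars for the mean and error bars for the SD of 4 mice. The points lie between 0.798% and 1.14%, those below 0.987% are all from DMI mice, and the Sham-DMI points are the most spread.

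mt-Co1, the most read of the 10, supplied 26.8% to 28.9% of the reads of the 10 genes in all 16 libraries. Across the libraries the coefficient of variation of CPM was 8.45% in mt-Cytb, 8.90% in mt-Nd4, 9.39% in mt-Nd6, 10.2% in mt-Nd1, 10.7% in mt-Nd2, 11% in mt-Co1 and 13.4% in mt-Nd5. It was higher in mt-Atp6 (17.1%) and mt-Co3 (20.4%), but 9.44% in mt-Co2. Pearson correlations of log2 CPM between pairs of the 10 genes over the 16 libraries had a median of 0.797 (0.412 to 0.967, 45 pairs), and 0.715 between the upper and the lower set. All values of a pair come from the same library, and the correlations are given as a description.

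Nerve injury under saline was compared first. None of the 10 genes was called in SNI-Saline versus Sham-Saline (adjusted p under 0.1, edgeR's quasi-likelihood test), where 12% of all 21371 genes tested were called. None had an unadjusted p under 0.05 (23% of all genes did), DESeq2 called none, and no gene had groups without overlap (15.4% of all genes did). The log2 fold changes ran from -0.24 (SE 0.14) in mt-Atp6 to 0.03 (SE 0.08) in mt-Cytb, with 8 of 10 below 0 (50.1% of all genes were below 0). In the upper set the 95% interval of the change was -15.3% to 6.38% for mt-Nd1, -17.6% to 7.89% for mt-Nd2, -14.7% to 11.9% for mt-Co1, -12.1% to 11.7% for mt-Nd4, -19.8% to 10.03% for mt-Nd5, -9.43% to 11% for mt-Nd6 and -9.12% to 14.6% for mt-Cytb. For mt-Atp6 it was -30.8% to 3.38%.

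DMI in injured mice was compared next. All 10 genes were lower in value in SNI-DMI than in SNI-Saline (51% of all genes were). Their log2 fold changes ran from -0.08 to -0.38 with a median of -0.17, against -0.0047 over all genes. Levels of the 10 genes were correlated over the libraries (median r of 0.797 between pairs), so they do not stand for 10 independent results. None was called at an adjusted p under 0.1, where 2.93% of all genes were. An unadjusted p under 0.05 was reached by 4 of the 10 (18.5% of all genes, and 9.64% with lower values in SNI-DMI): mt-Nd1, mt-Nd5, mt-Nd6 and mt-Co3.

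mt-Nd6, a core membrane subunit of complex I, came nearest to the threshold. Its level was 451, 424, 428 and 458 CPM in SNI-Saline and 348, 343, 422 and 385 CPM in SNI-DMI. Every SNI-DMI library was below every SNI-Saline library, and the nearest values were 422 and 424 CPM. The log2 fold change was -0.23 (SE 0.07, unadjusted p = 0.0037, edgeR adjusted p = 0.106), a change of -14.9% with a 95% interval of -23.2% to -5.80%. With DESeq2 the adjusted p was 0.0404, with only the 8 libraries of the comparison 0.0722, and after removal of trends on GC content and length 0.755. Without Sham-DMI replicate 1 it was 0.0732 and without Sham-DMI replicate 4 it was 0.0943, though these libraries are not in the comparison and enter through the shared estimate of the spread.

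mt-Nd1, which lies where complex I takes up ubiquinone, had 1485, 1398, 1434 and 1488 CPM in SNI-Saline and 1202, 1104, 1387 and 1339 CPM in SNI-DMI, also without overlap. Its log2 fold change was -0.21 (SE 0.08, edgeR adjusted p = 0.172). mt-Co1, the catalytic subunit of cytochrome c oxidase, had 2963, 2706, 2763 and 2763 CPM in SNI-Saline and 2420, 2176, 2693 and 2509 CPM in SNI-DMI. The groups did not overlap here either, and the log2 fold change was -0.19 (SE 0.09, edgeR adjusted p = 0.279). These 3 of 10 genes without overlap stand against 13.3% of all genes tested without overlap, and against 5.97% without overlap and lower. Levels of these 3 genes were correlated over the libraries (r of 0.745 to 0.920 between pairs), so they are not 3 independent results.

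mt-Nd5, a proton-pumping subunit of complex I, had a log2 fold change of -0.24 (SE 0.11, edgeR adjusted p = 0.250), and 0.0883 was its adjusted p without Sham-DMI replicate 1. mt-Co3 had one of -0.38 (SE 0.14, edgeR adjusted p = 0.160), and 0.0777 with DESeq2. The other 5 genes lay between -0.08 (mt-Nd4) and -0.16 (mt-Atp6). mt-Cytb was at -0.11 (SE 0.08), mt-Nd2 at -0.15 (SE 0.09), mt-Co2 at -0.13 (SE 0.09) and mt-Atp6 at -0.16 (SE 0.14). After removal of trends on GC content and length, the values were -0.05 in mt-Nd6 and -0.08 in mt-Nd1, and mt-Nd2 and mt-Nd4 were above 0.

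**Figure D3:**
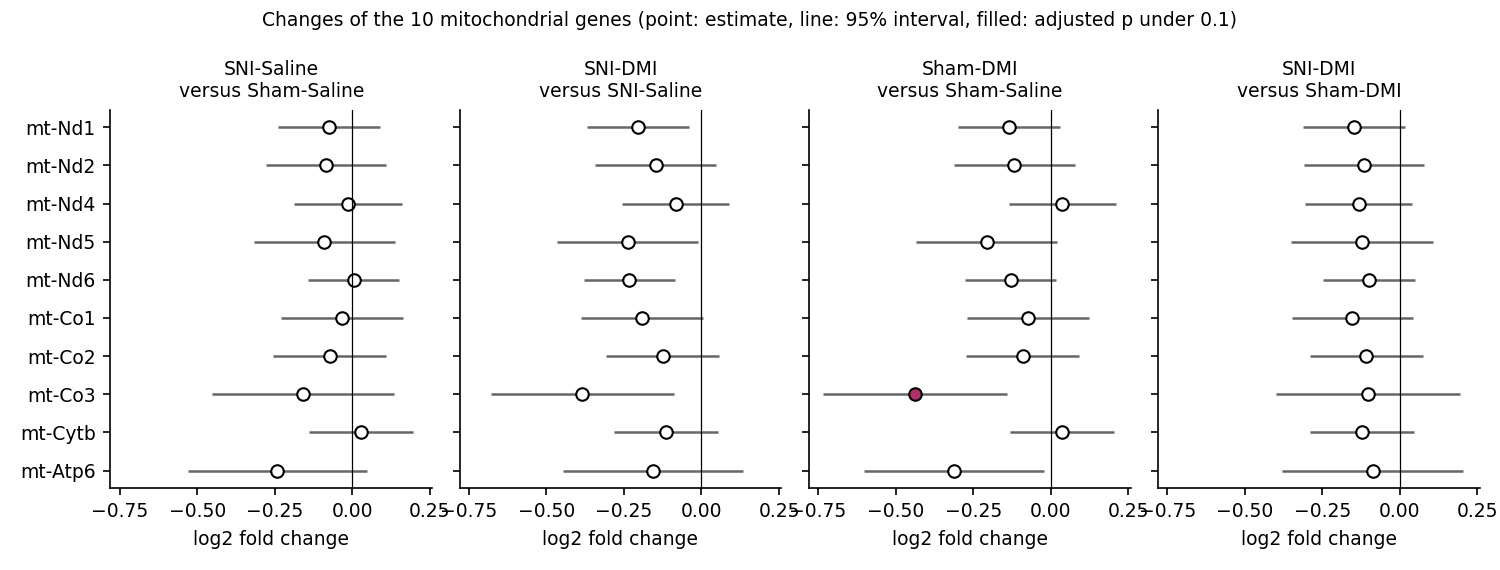
log2 fold changes of the 10 genes in 4 comparisons (columns), from edgeR's fit of all 16 libraries, with lines for 95% intervals and filled points for an adjusted p under 0.1. One point is filled, mt-Co3 in Sham-DMI versus Sham-Saline, and in both comparisons of SNI-DMI all 10 points lie below 0.

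In sham-operated mice DMI gave the one call among the 10 genes. mt-Co3, a core subunit of complex IV, was lower in Sham-DMI than in Sham-Saline, where 23.4% of all genes were called and 11.9% were called lower. Its level was 20.9, 20.8, 17.6 and 18.5 CPM in Sham-Saline and 13.6, 16.8, 16.2 and 10.9 CPM in Sham-DMI. The groups did not overlap, as in 8.51% of all genes with the lower values in Sham-DMI, and 648 to 1473 reads per library stood behind these values. The log2 fold change was -0.44 (SE 0.14, edgeR adjusted p = 0.0408), a change of -26.2% with a 95% interval of -39.8% to -9.40%. An unadjusted p under 0.05 was reached by mt-Co3 and mt-Atp6 (30.6% of all genes, and 15.9% with lower values in Sham-DMI). The call was lost without Sham-Saline replicate 1 (adjusted p = 0.110), without Sham-DMI replicate 1 (0.118) and without Sham-DMI replicate 4 (0.144).

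The row of the identical nuclear pseudogene moved differently from mt-Co3. CPM values of Gm28437 were 9.43, 9.39, 19.6 and 8.98 in Sham-Saline, 9.47, 9.43, 8.47 and 8.30 in SNI-Saline, 7.5, 8.04, 19.1 and 26.8 in Sham-DMI, and 8.21, 6.40, 7.65 and 7.91 in SNI-DMI. Sham-Saline replicate 3 and Sham-DMI replicates 3 and 4 stood apart from the other 13 libraries, and the same 3 libraries were high for the summed level of all 7 pseudogenes of the block (94.4 to 132 CPM, against 34 to 51.5 CPM). The sum of mt-Co3 and Gm28437 was 31.3 ± 4.12 CPM in Sham-Saline and 29.7 ± 8.01 CPM in Sham-DMI (SD, n = 4). With the pseudogene counts added to their mitochondrial genes, the log2 fold change of mt-Co3 was -0.06 (edgeR adjusted p = 0.831). Without the 3 libraries it was -0.41 (adjusted p = 0.190), with 3 mice in Sham-Saline and 2 in Sham-DMI. Both alternatives were chosen after seeing the data, and reads of the 2 genes cannot be told apart where their sequences are identical.

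**Figure D4:**
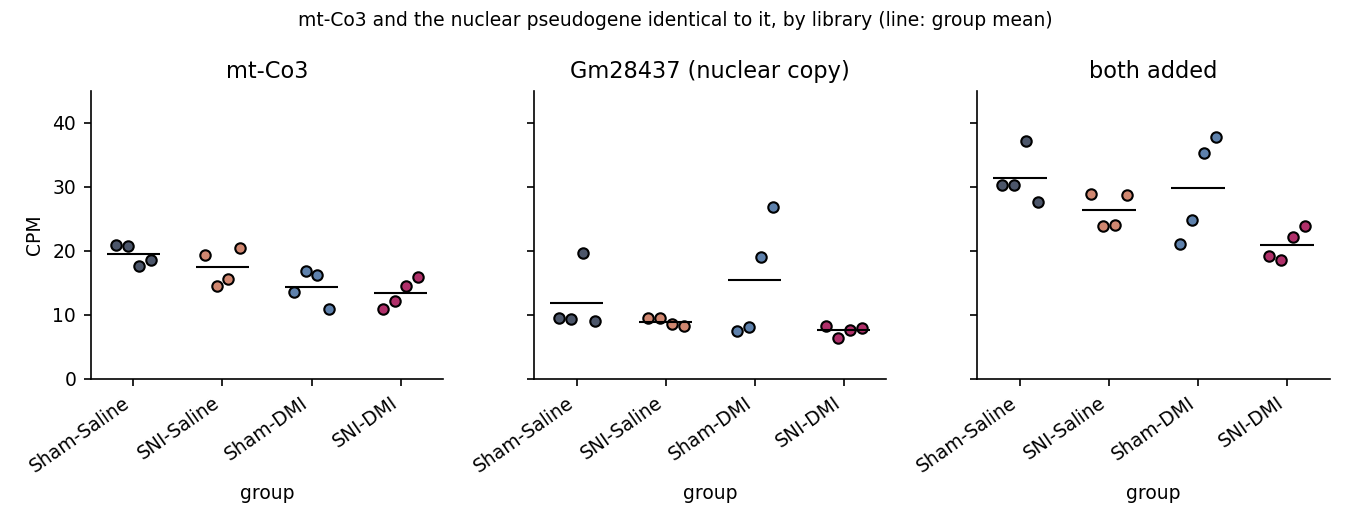
CPM (axis from 0) of mt-Co3, of its identical nuclear pseudogene Gm28437 and of both added, in the 16 libraries by group, with 1 point per mouse and a line for the group mean. Sham-DMI lies below Sham-Saline in the left panel, and in the right one Sham-DMI replicate 4 (37.7 CPM), Sham-Saline replicate 3 (37.2 CPM) and Sham-DMI replicate 3 (35.2 CPM) are the highest.

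The other genes of the lower set had lower values as well. mt-Atp6, the proton channel subunit of the ATP synthase, was at -0.31 in Sham-DMI versus Sham-Saline (SE 0.14, unadjusted p = 0.0371, edgeR adjusted p = 0.135), and mt-Co2, which takes electrons from cytochrome c, at -0.09 (SE 0.09). With the pseudogene counts added, mt-Atp6 was at 0.01 and mt-Co2 at 0.15. Only the copy sharing the most windows was added to each gene, though windows of mt-Atp6 and of mt-Co2 were each found in 2 other annotated genes. In the upper set the values ran from -0.21 (mt-Nd5, SE 0.11, edgeR adjusted p = 0.209) to 0.04 (mt-Cytb and mt-Nd4, SE 0.08 each), and no gene was called. The Sham-DMI mice differed widely among themselves: mt-Co1 had 2206 CPM in replicate 1, 3388 CPM in replicate 3, and 2705 and 2597 CPM in the other 2 mice. Without Sham-DMI replicate 3, mt-Nd1 was called (-0.20, edgeR adjusted p = 0.0596, from -0.13 and 0.264 with it), and mt-Cytb and mt-Nd4 were below 0. Without Sham-DMI replicate 1, mt-Co1 was above 0.

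Injury under DMI was compared in SNI-DMI versus Sham-DMI. None of the 10 genes was called, where 0.402% of all genes were, none had an unadjusted p under 0.05 (12.1% of all genes did) or groups without overlap (5.04%), and DESeq2 called none. All 10 were lower in value in SNI-DMI (49.8% of all genes were), within a narrow band of log2 fold changes from -0.09 to -0.15. The DMI effect in injured mice was also set against that in sham mice in an interaction term. None of the 10 genes differed (smallest edgeR adjusted p = 0.749, mt-Cytb), nor did any of the 21371 genes tested (0%), of which 1692 (7.92%) had an unadjusted p under 0.05. DESeq2 called 16 genes for this difference, none of them among the 10. The 95% interval of the difference was -0.36 to 0.47 on the log2 scale for mt-Co3 and -0.31 to 0.10 for mt-Nd6. By a looser rule, an unadjusted p under 0.05 with a log2 fold change of at least 0.32 in either direction, mt-Co3 passed with DMI in injured mice (5.73% of all genes) and in sham mice (11.5%). None of the 10 passed it after injury (7.15%), with injury under DMI (5.41%) or for the difference (3.45%). The comparisons share groups: SNI-DMI enters both comparisons in which all 10 genes were lower in value, and the 10 genes are correlated with each other.

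Among the 3 remaining protein genes, mt-Nd4l of complex I was lower in SNI-DMI than in SNI-Saline (log2 fold change -0.52, SE 0.14, edgeR adjusted p = 0.0871) and in Sham-DMI than in Sham-Saline (-0.34, SE 0.14, adjusted p = 0.0995). Its CPM was 4.21, 3.61, 3.46 and 3.35 in the Sham-Saline mice, 3.41, 3.57, 3.76 and 3.79 in SNI-Saline, 2.70, 3.12, 3.42 and 2.32 in Sham-DMI, and 2.25, 2.11, 3.02 and 2.73 in SNI-DMI. The copy of mt-Nd4l, Gm10222, was at 0.41 (SE 0.39) with DMI in sham mice and at -0.35 (SE 0.40) in injured mice. The sum of both was 6.42 ± 1.47 CPM in Sham-Saline and 6.57 ± 2.42 CPM in Sham-DMI (SD, n = 4). The lower level of mt-Nd4l in sham mice was thus not seen in the group means of the sum. By mouse the sum was 6.43, 5.60, 8.48 and 5.15 CPM in Sham-Saline and 4.30, 4.73, 8.07 and 9.19 CPM in Sham-DMI. The highest of these were Sham-Saline replicate 3 and Sham-DMI replicates 3 and 4, the libraries that were high for the pseudogenes. In injured mice the sum was 5.90 ± 0.195 CPM in SNI-Saline and 4.31 ± 0.733 CPM in SNI-DMI. mt-Atp8, a small subunit of the ATP synthase, was lower in Sham-DMI than in Sham-Saline (-0.65, SE 0.22, edgeR adjusted p = 0.0488), with overlap between the groups. After injury under saline it was at -0.55 (SE 0.22, edgeR adjusted p = 0.132). Between 96 and 276 reads per library stood behind mt-Atp8, and 129 to 256 behind mt-Nd4l. The fits of these 3 remaining genes were not repeated under the alternative settings. mt-Nd3 was not called in any comparison. Neither rRNA was called in any comparison, with log2 fold changes from -0.21 to 0.06.

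The nuclear subunits of the same complexes had other values. Of 78 nuclear genes listed for complexes I to V, 77 were tested, and 54 were called higher after injury under saline (5.85% of all genes were), 74 with DMI in sham mice (11.6%), 7 with DMI in injured mice (1.32%) and 0 with injury under DMI (0.374%). None was called lower in these comparisons. The median log2 fold change of the nuclear subunits was 0.21 after injury, 0.31 with DMI in sham mice, 0.13 with DMI in injured mice and 0.02 with injury under DMI. The medians of the 10 mitochondrial genes were -0.07, -0.12, -0.17 and -0.12 in the same order, and those of all genes lay between -0.02 and 0.0007. Each of the 4 comparisons shares a group with 2 of the others, so they are not independent of each other.

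By complex, the genes called higher with DMI in sham mice were 35 of 36 nuclear subunits of complex I, 3 of 4 of complex II, which has no mitochondrially encoded subunit, 9 of 9 of complex III, 11 of 11 of complex IV and 16 of 17 of complex V. Examples are Ndufs7, which carries an iron-sulfur cluster of complex I (0.48, SE 0.06), Ndufb10 (0.45, SE 0.06), Cox4i1, a regulatory subunit of complex IV (0.38, SE 0.06), and Atp5g2, a subunit of the ring of the ATP synthase (0.53, SE 0.07). After injury under saline, Ndufs5 (0.32, SE 0.07), Cox8a (0.25, SE 0.06) and Atp5k (0.36, SE 0.09) rose. Uqcrc1, which is among the 9 called of complex III and was singled out after its values were seen, had the widest error. It lay at 0.466 to 0.785 CPM in the saline libraries, at 11 CPM in Sham-DMI replicate 2, at 4.58 CPM in SNI-DMI replicate 1 and at 0.717 to 1.5 CPM in the other 6 DMI libraries.

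These counts rested on few libraries in part. The count after injury fell from 54 to 13 without Sham-Saline replicate 3, to 18 without SNI-Saline replicate 1 and to 24 without SNI-Saline replicate 2, and to 11 after removal of trends on GC content and length. The count with DMI in injured mice lay between 0 and 23 when single libraries were left out, and was 0 after removal of these trends. With DMI in sham mice it lay between 71 and 77 when single libraries were left out, and was 61 after removal of the trends. Without the 3 libraries that were high for the nuclear pseudogenes, the counts were 7 after injury, 0 with DMI in injured mice and 30 with DMI in sham mice.

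**Figure D5:**
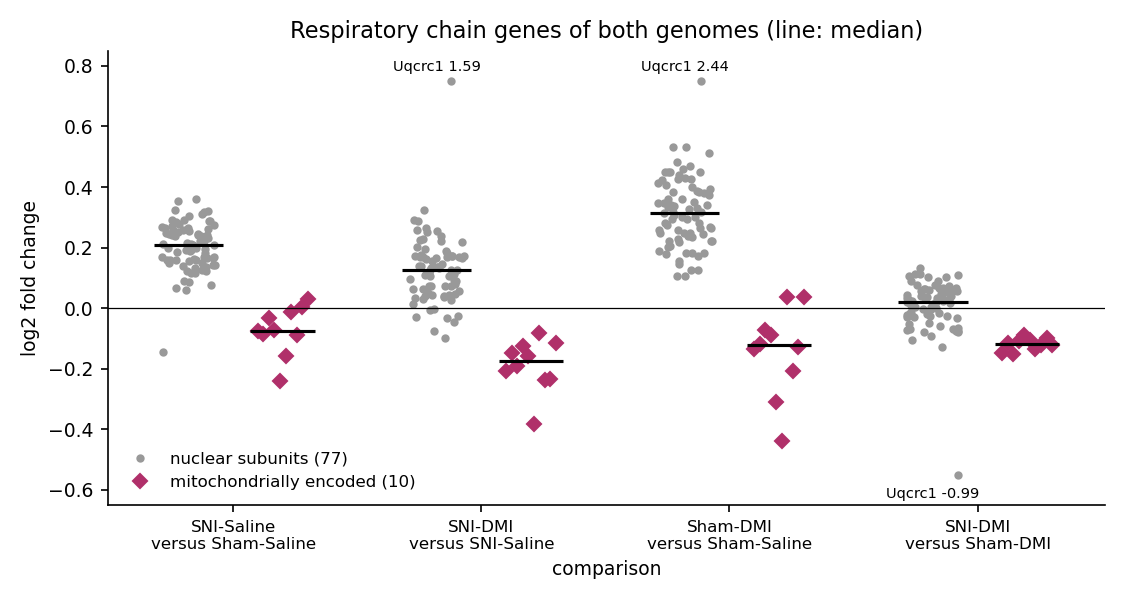
log2 fold changes of the 77 nuclear subunits (grey) and the 10 mitochondrially encoded subunits (red) in 4 comparisons, with a line at each median. Nuclear medians lie above 0 and mitochondrial medians below 0 in all 4 as drawn, but the nuclear median for injury under DMI (0.02) was -0.03 after removal of trends on GC content and length and -0.02 without Sham-DMI replicate 2, and Uqcrc1 is drawn at the edge of the plot with its value where it exceeds the axis.

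Genes that act on mitochondrial RNA and DNA were counted next. Of 17 genes of mitochondrial transcription and DNA maintenance, 1 was called after injury (Top1mt, the mitochondrial topoisomerase, 0.23, SE 0.07), 2 with DMI in sham mice (Top1mt 0.24, SE 0.07, and the helicase Twnk 0.25, SE 0.08) and 0 with DMI in injured mice. The shares of all genes called higher were 5.85%, 11.6% and 1.32% in the same order. Of 20 genes of mitochondrial RNA processing and stability, 5 were called higher with DMI in sham mice, among them Tbrg4 (0.20, SE 0.05), Hsd17b10, a subunit of the RNase that cuts at the tRNAs (0.29, SE 0.07), and Fastk (0.16, SE 0.05). Pnpt1, an exoribonuclease subunit, fell in Sham-DMI versus Sham-Saline (-0.14, SE 0.05) and in SNI-DMI versus SNI-Saline (-0.19, SE 0.05). After injury under saline 1 of the 20 was called (Hsd17b10, 0.21, SE 0.07).

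Regulators of mitochondrial biogenesis were called in both directions. With DMI in sham mice 2 of 8 rose, Esrra (0.23, SE 0.06) and Nrf1 (0.16, SE 0.06), and 4 fell (11.6% and 11.9% of all genes), with the smallest p in the coactivators Ppargc1b (-0.45, SE 0.13) and Ppargc1a (-0.31, SE 0.10) and in Gabpa (-0.19, SE 0.07). After injury under saline Ppargc1b fell (-0.39, SE 0.13, edgeR adjusted p = 0.0768), and DMI in injured mice gave no call.

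Marker lists of other cell types were read beside these results. For all marker lists, the shares of all genes called in either direction were 12% after injury, 23.4% with DMI in sham mice and 2.93% with DMI in injured mice. Of 5 neutrophil markers, 4 were called lower with DMI in sham mice and 2 in injured mice. Of 5 macrophage markers, 3 were called higher after injury and 1 lower with DMI in sham mice. Summed sensory neuron markers lay at 8956 to 9684 CPM in Sham-Saline and at 9334 to 11677 CPM in the other groups, with 4 of 8 called higher with DMI in sham mice, 1 after injury and 0 with DMI in injured mice. Schwann cell markers ranged from 3636 to 6446 CPM with no call in any comparison. Satellite glia had 1 marker called in each direction with DMI in sham mice and 1 called higher with DMI in injured mice. Of the spinal cord list, Slc1a2, which satellite glia also express, fell with DMI in sham (-0.52, SE 0.14) and in injured mice (-0.49, SE 0.14), and Olig1, at 0.0348 to 1.04 CPM in all libraries, rose after injury (1.33, SE 0.47). Erythrocyte, adipocyte and skeletal muscle markers gave no call. Of 6 nuclear-retained noncoding RNAs, 1 was called, Kcnq1ot1 after injury (-0.34, SE 0.12). The part of these cell types in the values of the mitochondrial genes was not tested.

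The genes outside the mitochondrial genome whose log2 CPM followed the summed level of the 10 genes most closely over the 16 libraries were Serinc1 (Pearson's r = 0.903), Dcdc5 (0.895), Epyc (0.872), Mtmr6 (0.870) and Cntn1 (0.870). Serinc1, Mtmr6 and Cntn1 had mean levels of 684, 498 and 466 CPM, and Dcdc5 and Epyc of 0.968 and 2.68 CPM. These correlations were picked as the highest of all genes tested and are given as a description.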

How the data were processed

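RNA of 16 DRG samples was measured by stranded mRNA sequencing in pairs of 50-base reads. The deposited values are whole-number counts per Ensembl gene without normalization. The genome build of the authors was mm10, and the submitters' processing notes name HISAT2, HTSeq and DESeq2. The versions of HISAT2 and HTSeq, the annotation release and the strand setting of the counting are not given in the sources used here. Between 79.6% and 81.2% of read pairs were counted on a gene, and the 5 lines of other pairs were left out of tests and library sizes. No genome sequence was used, so shared windows were searched for in annotated transcripts. Coordinates and transcripts come from GENCODE M21 on GRCm38, which holds 52489 of the 52636 genes.

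Counts were filtered with filterByExpr (21371 genes), scaled by TMM and tested in edgeR 4.0.16 (R 4.3.3) with glmQLFit over all 16 libraries and glmQLFTest, with Benjamini-Hochberg adjustment over all genes and a threshold of 0.1. The SE is the log2 fold change over the root of F. Replicates are separate mice, and the chi-square per gene between them (10.4 to 44.3) exceeded counting error, so intervals from the fit include the spread between mice. The test was tested on simulated data. The sample titles number the DMI libraries 17 to 24, SNI-Saline 33 to 36 and Sham-Saline 37 to 40, and do not say what these numbers stand for. Each group has its own run of numbers, and the DMI and saline libraries form separate blocks. A difference with DMI or injury cannot be told apart from one of whatever the numbers stand for.

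The genes, lists and tests were chosen with earlier results of these data known. Named are all 10 genes, the other mitochondrial proteins and rRNAs, the nuclear pseudogenes, up to 3 genes per direction and list with the smallest adjusted p, and the 5 most correlated genes. The start of treatment is 4 weeks after surgery in the results and 4 months in the methods of the study. Alternatives were no filter, at least 10 counts in every library, upper-quartile normalization, TMM without mitochondrial genes, a replicate block, removal of GC and length trends (mgcv 1.9.3), the libraries of the comparison only, DESeq2 1.42.0 and each library left out. Leaving out the 3 libraries rich in pseudogene reads was chosen after seeing the data. So was adding the counts of the closest pseudogene to each of mt-Co1, mt-Co2, mt-Co3, mt-Nd4 and mt-Atp6. Figures used python 3.11.15 and matplotlib 3.10.9, and sequences Biopython 1.88.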

Additional observations from a re-analysis of the deposited data

Results flagged for a closer look

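Of 68 groups of 4 mice examined, 7 had 1 mouse whose gap to its nearest neighbour exceeded Dixon's limit for 4 samples. Chance flags about 1 group in 20. The 68 groups are not independent, because the same libraries recur and the summed block contains pseudogenes also examined singly. Among the 10 genes the flag fell on mt-Cytb in SNI-Saline replicate 1, with 2208 CPM against 2051 to 2074 CPM in the other 3 mice. The others were nuclear pseudogenes. Sham-Saline replicate 3 was the high mouse for Gm28661 (18 CPM, against 8.31 to 8.45), Gm10925 (24.7 CPM, against 10.6 to 11.7), Gm28437 (19.6 CPM, against 8.98 to 9.43), Gm29216 (12.8 CPM, against 7.05 to 7.72) and the summed level of the block (96.9 CPM, against 48.2 to 51.5). SNI-DMI replicate 2 was low for Gm28661 (6.13 CPM, against 8.62 to 9.0).

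Reads outside the gene counts also differed from Sham-Saline. Every library of the other groups had more ambiguous reads than every Sham-Saline library, with a median of 3.29% for SNI-Saline, 3.34% for Sham-DMI and 3.40% for SNI-DMI, against 3.14%. Reads that aligned in more than 1 place had a median of 6.29% in SNI-DMI, against 5.96% in Sham-Saline, without overlap.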

How the results depend on the processing

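The count of calls among the 10 genes was 0 under every alternative after injury under saline, with injury under DMI and for the difference of both DMI effects. In SNI-DMI versus SNI-Saline it was 0, and 1 with at least 10 counts in every library, with upper-quartile normalization and with the libraries of the comparison only, 2 with DESeq2, and 0 to 2 when single libraries were left out. In Sham-DMI versus Sham-Saline it was 1, and 0 without the 3 libraries rich in pseudogene reads or with the pseudogene counts added, and 0 to 2 when single libraries were left out. The mean summed share as a percent of all read pairs was 0.822% and 0.821% without DMI (sham, injured) and 0.787% and 0.728% with DMI (sham, injured), since the unassigned reads enter the total. In the same order, leaving out single mice gave 1.02% to 1.04%, 1.01% to 1.03%, 0.922% to 1.03% and 0.870% to 0.940% of reads on genes.

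Signs turned as follows, on the log2 scale. In SNI-Saline versus Sham-Saline, mt-Nd4 turned to 0.00036 with upper-quartile normalization, mt-Nd4 to 0.029 and mt-Cytb to -0.00025 after removal of GC and length trends, and mt-Nd6 to -0.015 without the 3 libraries. In SNI-DMI versus SNI-Saline the removal of trends turned mt-Nd2 to 0.0070 and mt-Nd4 to 0.085. In Sham-DMI versus Sham-Saline the added pseudogene counts turned mt-Co2 to 0.15 and mt-Atp6 to 0.0095, and leaving out the 3 libraries turned mt-Nd4 to -0.10 and mt-Cytb to -0.11. With single libraries left out, the injury values of mt-Co1 ran from -0.049 to 2.65e-05, of mt-Nd4 from -0.027 to 0.030 and of mt-Nd6 from -0.013 to 0.063, and the values of DMI in sham mice of mt-Co1 from -0.18 to 0.035, of mt-Nd4 from -0.047 to 0.12 and of mt-Cytb from -0.041 to 0.12. The cause was not tested.

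Deviations of same-numbered libraries from their group means correlated at -0.08 to 0.18 over 24 pairs, with 5 over 0.1. Of 16 libraries, 7 correlated best with their own number, and the number given by chance was not computed. With the replicate block the calls among the 10 genes were 0, 0, 1, 0 and 0 over the 5 comparisons, as without it, and the nuclear subunits called higher with DMI in injured mice were 2 in place of 7, against 30 with the libraries of the comparison only and 15 with DESeq2. The counts behind mt-Co3, mt-Atp6 and mt-Co2 were 626 to 1678 reads per library, against 17286 to 199332 for the other 7.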

Other observations

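The clearest differences on the mitochondrial genome were in 4 tRNA rows, mt-Ta, mt-Tn, mt-Tc and mt-Ty, which were chosen after their values were seen. They code for the tRNAs of alanine, asparagine, cysteine and tyrosine, lie side by side between mt-Nd2 and mt-Co1 and are on the strand of mt-Nd6. The CPM of mt-Tc was 3.41, 3.06, 2.80 and 4.32 in the Sham-Saline mice, 1.12, 1.09, 1.48 and 2.40 in SNI-Saline, 0.581, 1.32, 0.874 and 0.615 in Sham-DMI, and 0.436, 0.383, 0.478 and 1.28 in SNI-DMI. All libraries of the other 3 groups were below all Sham-Saline libraries for mt-Tc. Of all genes, 15.4% had no overlap in either direction after injury under saline and 17.1% with DMI in sham mice. The shares of all genes called were 12% after injury under saline, 23.4% with DMI in sham mice and 2.93% with DMI in injured mice. In Sham-DMI versus Sham-Saline the log2 fold changes were -1.85 (mt-Ta, SE 0.35), -2.30 (mt-Tn, SE 0.40), -1.99 (mt-Tc, SE 0.35) and -1.54 (mt-Ty, SE 0.24), with edgeR adjusted p-values of 0.0033, 0.0022, 0.0023 and 0.0019. After injury under saline they were -1.15, -1.22, -1.15 and -0.80, with edgeR adjusted p-values of 0.0525, 0.0586, 0.0503 and 0.0515. With DMI in injured mice mt-Tn (-1.58, adjusted p = 0.0841) and mt-Ty (-0.91, adjusted p = 0.0938) passed, and mt-Ta (-1.20, adjusted p = 0.110) and mt-Tc (-1.23, adjusted p = 0.102) did not.

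These rows rest on 11 to 286 reads per library. Of the other 8 tRNA rows tested, mt-Te was called in Sham-DMI versus Sham-Saline (-0.42, SE 0.14, edgeR adjusted p = 0.0438), and no other was called in these 3 comparisons. Among these 8, mt-Ts1, mt-Tq, mt-Te and mt-Tp also lie on the strand of mt-Nd6. After injury under saline, with DMI in injured mice and with DMI in sham mice, mt-Ts1 was at -0.08, -0.14 and 0.13. In the same order mt-Tq was at -0.36, -0.48 and -0.42, mt-Te at -0.23, -0.25 and -0.42, and mt-Tp at 0.05, -0.09 and -0.05. A tRNA is shorter than a selected library fragment and has no long poly(A) tail, and whether the reads come from tRNAs, from uncut RNA of that strand or from copies elsewhere was not tested. The values of these rows were not recomputed under the alternatives.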
